A study of Mus musculus with 9 samples.

Results

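The insulin-like growth factor (IGF) system was followed through 9 pieces of mouse liver tissue as 10 genes: the ligands Igf1 and Igf2, the receptors Igf1r and Igf2r, the acid-labile subunit Igfals and the binding proteins Igfbp1 to Igfbp5. The genes were listed by name, and every probe set carrying only that symbol was taken, which gave 26 of the 45101 probe sets and 10 of 18194 genes. The system was chosen by the measured levels of Igf2, very high in the adjacent liver and low elsewhere, so those levels are given as a description, without a test.

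Each piece was hybridised to 1 Affymetrix 3' expression array, and the values are log2 RMA expression levels. The group Normal holds 3 pieces of liver with mild steatosis from a wild-type C57Bl6 mouse. The group Het Liver holds 3 pieces of liver adjacent to a tumor, with altered cells and severe steatosis, and Het Tumor holds 3 pieces of that hepatocellular carcinoma, also severely steatotic. Both came from the same SART1+/- C57Bl6 mouse, and tumors of these mice arose spontaneously. All animals were male, 12 months old, untreated and on regular chow. Because the pieces of a group come from 1 animal, p-values measure the spread between pieces. Genotype and animal cannot be told apart.

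In the liver, growth hormone acts through its receptor and STAT5 to drive production of IGF-1, most of which circulates bound to IGFBP-3 and the acid-labile subunit. IGF-2 is a fetal growth factor from an imprinted gene, and rodent liver makes little of it after weaning. Both ligands signal through the tyrosine kinase IGF1R, which uses the insulin receptor substrates, PI3 kinase and AKT. IGF2R, the mannose 6-phosphate receptor, takes up IGF-2 for degradation, and the binding proteins hold the ligands and regulate their access to IGF1R.

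Sart1, the gene altered in the heterozygous mouse, was at 8.34 ± 0.02 in Normal, 8.37 ± 0.03 in Het Liver and 7.74 ± 0.03 in Het Tumor (log2 level, SD, n = 3). Het Liver differed from Normal by 0.03 (SE 0.05, limma adjusted p = 0.678). On this brighter probe set Sart1 was therefore not lower in the pieces labelled Het Liver. A dimmer Sart1 probe set had means of 5.71 in Normal, 5.57 in Het Liver and 5.38 in Het Tumor, and Het Liver overlapped with Normal. Where the Sart1 probes lie with respect to the changed allele is unknown, so these levels may not test the genotype. The group names below are those of the labels. Within a group, the correlation of any pair of arrays over probe sets was 0.996 to 0.998. The difference between the 3' and 5' probe sets of Actb, a measure of RNA integrity, was 0.86 ± 0.02 in Normal, 0.85 ± 0.05 in Het Liver and 0.59 ± 0.09 in Het Tumor (log2, SD, n = 3). For Gapdh it was 0.27 ± 0.02, 0.16 ± 0.02 and 0.21 ± 0.01, lowest in Het Liver. Of 8 hepatocyte markers, 7 were measured and none was at the bottom of the scale. Their mean log2 level was 13.87 to 13.90 in Normal, 13.75 to 13.76 in Het Liver and 13.81 to 13.84 in Het Tumor. The mean of 6 cholangiocyte markers was 6.21 to 6.34, 7.56 to 7.64 and 7.44 to 7.55 in the same order, and that of 9 stellate cell markers 8.34 to 8.71, 9.29 to 9.58 and 9.26 to 9.69. These means do not hold for each marker. Of the 6 cholangiocyte markers 2, Cldn7 and Krt23, were called higher in each heterozygous tissue against Normal. Krt19 differed by 0.31 in Het Tumor and -0.13 in Het Liver and Epcam by 0.09 and -0.06. Sox9, not called, had means of 6.33 in Normal, 7.33 in Het Liver and 7.06 in Het Tumor, without overlap with Normal. A dimmer Sox9 probe set was at 5.97, 7.43 and 7.08 in that order. Krt7 was at 5.16, 5.37 and 5.25, with overlap. Of the stellate markers 4 were called higher and 1, Lrat, lower in each heterozygous tissue against Normal. In Het Liver Reln differed by -0.73 and Dcn by -0.48. Over all genes tested, 8.41% were called higher and 4.59% lower in Het Tumor against Normal, and 8.29% and 3.22% in Het Liver. The macrophage marker mean was 9.28 to 9.39, 9.40 to 9.90 and 9.81 to 10.05, and the endothelial one 8.53 to 8.73, 8.42 to 8.78 and 8.57 to 8.87. All measured markers of these lists exceeded the filter level on at least 1 array, and the part of these cells in the differences below was not tested. In such bulk samples, fewer cells of a type and less RNA per cell cannot be told apart.

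The DNA just upstream of Igf2, Igf2r, Igfals and Igfbp1 is shown here because, together with Igf1, they carry the largest differences among the 10 IGF genes. RefSeq start sites in GRCm38.p6 gave 16 windows for the 10 genes, and the 250 bases before each start were searched on both strands for 4 motifs. The insulin response core CAAAACA, which FOXO1 can bind, was found in 1 of the 16 windows, that of Igfbp1, 108 to 102 bases before the start. It occurs in 5.56% of all 32851 windows of that length. The STAT motif TTCNNNGAA was found in 2 of the 16 windows, both of Igfals, against 7.02% of all windows. The core ACGTG, to which hypoxia-inducible factors bind, lay in 3 windows, of Igf2, Igf2r and Igfbp2, against 16.6%. The GC box GGGCGG lay in 7 windows against 32.7%. In Igf2r each ACGTG is read on both strands as CACGTG, so the overlapping matches are the same bases. In the sequences, written 5′ to 3′ on the strand of the gene, capitals mark the STAT motif in Igfals, the insulin response core in Igfbp1, CACGTG in Igf2r and the GC boxes in Igf2. The Igf2 window is that of the most downstream of its 4 start sites, its ACGTG lies before another of them and is not in the printed bases, and which start was used in these pieces is not known.
Igfbp1, chr11:7197537-7197786, plus strand: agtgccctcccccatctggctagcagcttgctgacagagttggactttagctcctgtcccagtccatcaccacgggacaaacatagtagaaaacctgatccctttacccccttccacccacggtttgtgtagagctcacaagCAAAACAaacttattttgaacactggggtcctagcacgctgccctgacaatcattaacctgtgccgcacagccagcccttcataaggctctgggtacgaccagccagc
Igfals, chr17:24877594-24877843, plus strand: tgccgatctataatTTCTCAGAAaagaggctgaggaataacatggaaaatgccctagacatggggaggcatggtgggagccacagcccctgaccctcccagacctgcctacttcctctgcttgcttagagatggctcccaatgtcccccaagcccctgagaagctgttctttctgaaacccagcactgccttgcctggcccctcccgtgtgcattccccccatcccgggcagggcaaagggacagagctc
Igfals, chr17:24877981-24878230, plus strand: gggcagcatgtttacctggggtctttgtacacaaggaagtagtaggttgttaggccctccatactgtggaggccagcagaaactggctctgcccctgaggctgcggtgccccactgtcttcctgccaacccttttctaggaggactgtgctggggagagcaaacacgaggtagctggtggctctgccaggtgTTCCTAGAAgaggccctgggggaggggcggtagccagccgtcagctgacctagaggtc
Igf2r, chr17:12769707-12769956, minus strand: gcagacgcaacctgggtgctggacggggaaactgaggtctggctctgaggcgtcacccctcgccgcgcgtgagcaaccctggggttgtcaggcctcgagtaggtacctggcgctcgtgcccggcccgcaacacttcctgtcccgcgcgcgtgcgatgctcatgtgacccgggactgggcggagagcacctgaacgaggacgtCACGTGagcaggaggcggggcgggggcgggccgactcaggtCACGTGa
Igf2, chr7:142657497-142657746, minus strand: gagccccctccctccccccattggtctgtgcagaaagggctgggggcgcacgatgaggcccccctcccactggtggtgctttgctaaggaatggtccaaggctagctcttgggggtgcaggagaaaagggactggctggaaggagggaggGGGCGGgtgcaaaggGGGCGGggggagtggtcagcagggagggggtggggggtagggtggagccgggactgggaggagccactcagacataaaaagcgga
These matches are letters in the reference sequence. Binding was not measured.

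Of the ligands, Igf2 was at 6.84, 6.82 and 6.38 in the Normal pieces, 13.73, 13.62 and 13.69 in Het Liver and 7.40, 7.05 and 7.40 in Het Tumor (log2 level). The 3 Het Liver pieces stood far above the other 6, at 13.68 ± 0.06 (SD, n = 3). The mean in Het Liver was 128-fold that in Normal and 84.1-fold that in Het Tumor, on the linear scale. On this probe set Het Tumor exceeded Normal by 0.60 (log2), with no overlap, and Het Tumor pieces 1 and 3 had exactly the same value, 7.40246. A dimmer Igf2 probe set was at 6.97, 6.96 and 6.86 in Het Liver and between 4.25 and 4.57 on the other 6 arrays. It was above the filter level in Het Liver alone, and its Het Liver minus Normal difference was 2.38, where the brighter one gave 6.998. Its Het Tumor minus Normal difference was -0.21, with both groups below the filter level, and the mean of both probe sets gave 0.19, so the order of Het Tumor and Normal for Igf2 depended on the probe set. The filter level is the 40th percentile of an array, 5.16 to 5.26, and a probe set was tested where it exceeded that level on at least 3 arrays.

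Igf1, the main endocrine ligand made by hepatocytes, went the other way. It was at 12.76, 12.68 and 12.78 in Normal, 11.50, 11.29 and 11.42 in Het Liver and 10.63, 10.61 and 10.41 in Het Tumor. The 3 groups did not overlap and formed 3 steps, highest in Normal and lowest in Het Tumor. Igf1 fell by 2.19 on the log2 scale in Het Tumor against Normal (SE 0.08, limma adjusted p = 3.8e-09), a level 4.56-fold lower. It fell by 1.33 in Het Liver (SE 0.08, limma adjusted p = 1.81e-07), 2.52-fold lower. Het Tumor minus Het Liver was -0.85 (SE 0.08, limma adjusted p = 1.03e-05), which passes the adjusted p but not the 2-fold limit. All 4 Igf1 probe sets were called in both comparisons with Normal. Their differences were -2.68 to -2.19 for Het Tumor and -1.35 to -1.21 for Het Liver. Between Het Tumor and Het Liver, 2 of the 4 passed the 2-fold limit, at -1.38 and -1.46. The Igf1 window before its RefSeq start held none of the 4 motifs.

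**Figure D1:**
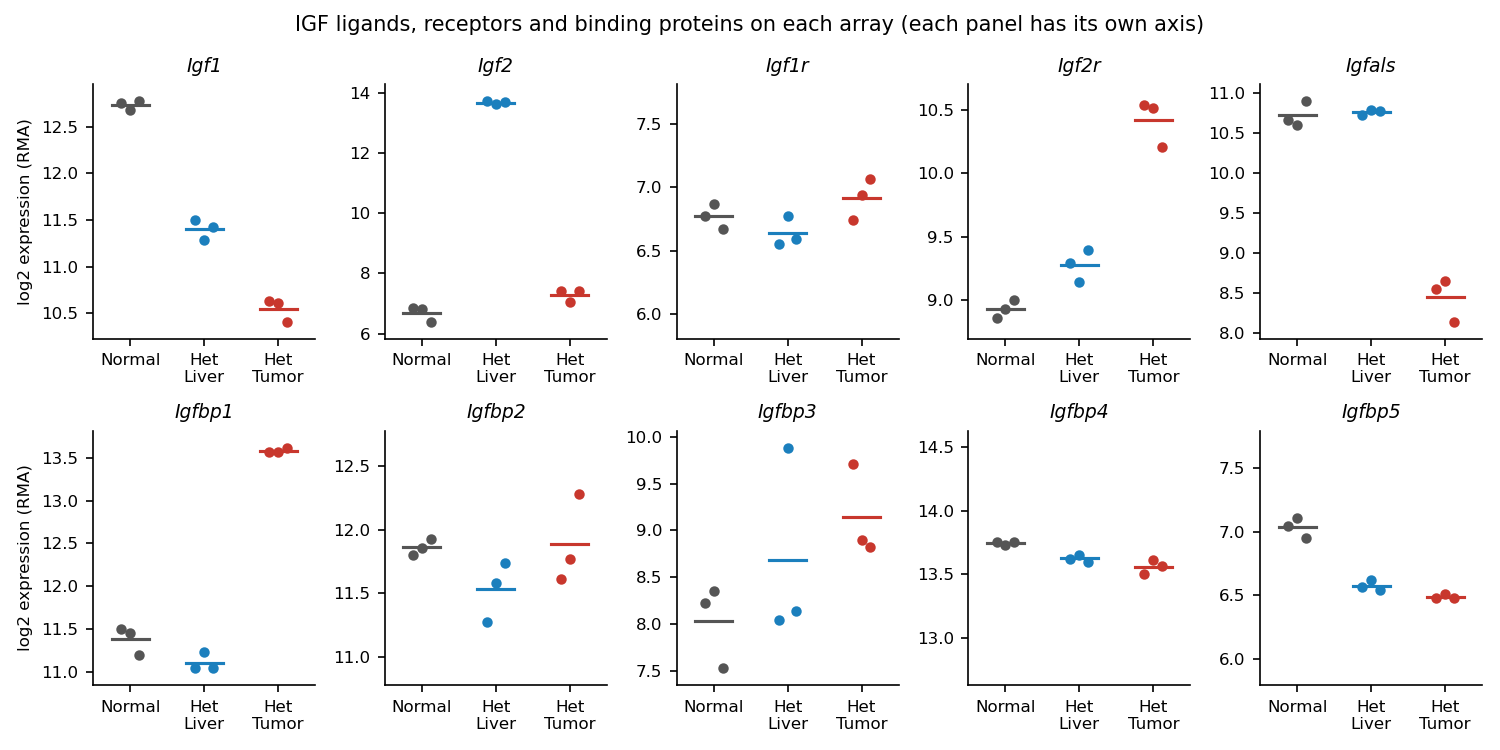
Log2 expression level (RMA) of the 10 IGF genes on each of the 9 arrays, 1 point per piece and a bar at the group mean, with a separate vertical axis in each panel. Igf2 stands near 13.7 in the 3 Het Liver pieces alone, Igf1 steps down from Normal to Het Liver to Het Tumor, and Igfbp1, Igf2r and Igfals set the tumor pieces apart.

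Of the receptors, Igf1r, which transmits the signal of both ligands, was at 6.78, 6.87 and 6.67 in Normal, 6.55, 6.77 and 6.59 in Het Liver and 6.74, 6.94 and 7.07 in Het Tumor. The 3 groups overlapped. The difference from Normal was 0.14 in Het Tumor (95% interval -0.07 to 0.35, limma adjusted p = 0.203) and -0.13 in Het Liver (95% interval -0.34 to 0.08, limma adjusted p = 0.237). Both intervals exclude a 2-fold change. Of its 5 probe sets, 2 were below the filter level on all 9 arrays. The other 2 dim ones passed through 3 arrays each, and 1 of them did so in Het Tumor alone, where its mean was 5.46 against 5.01 in Normal.

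Igf2r, the receptor that removes IGF-2, was at 8.86, 8.93 and 9.004 in Normal, 9.29, 9.14 and 9.39 in Het Liver and 10.54, 10.51 and 10.20 in Het Tumor. Every Het Tumor piece lay above every other piece, and Het Liver lay just above Normal. Igf2r rose by 1.49 in Het Tumor against Normal (SE 0.10, limma adjusted p = 3.38e-07), 2.81-fold. It was higher in Het Tumor than in Het Liver by 1.14 (SE 0.10, limma adjusted p = 6.43e-06). Het Liver minus Normal was 0.34 (SE 0.10, limma adjusted p = 0.0114), past the adjusted p and under 2-fold. The dimmer Igf2r probe set rose by 1.42 in Het Tumor and gave 0.94 in Het Liver and 0.47 between the 2 tissues of the heterozygous mouse. With the mean of both probe sets the Het Tumor minus Het Liver difference was 0.81 and no longer 2-fold.

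Igfals, which joins IGF-1 and IGFBP-3 in the long-lived circulating complex, was at 10.67, 10.61 and 10.90 in Normal and 10.74, 10.79 and 10.79 in Het Liver. In Het Tumor it was at 8.56, 8.65 and 8.14, below all 6 other pieces. Igfals fell by 2.27 against Normal (SE 0.12, limma adjusted p = 7.91e-08), 4.83-fold lower, and by 2.32 against Het Liver (SE 0.12, limma adjusted p = 2.68e-07). Het Liver minus Normal was 0.05 (95% interval -0.23 to 0.32, limma adjusted p = 0.758), an interval that excludes a 2-fold change. The STAT motif printed above lies 58 to 50 and 236 to 228 bases before 2 of its 3 start sites.

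Among the binding proteins, Igfbp1 showed the largest difference. Its transcription in liver is repressed by insulin through FOXO1. It was at 11.50, 11.46 and 11.20 in Normal, 11.05, 11.23 and 11.04 in Het Liver and 13.57, 13.57 and 13.62 in Het Tumor. The 3 tumor pieces were close together and far above the rest, and tumor pieces 1 and 2 had exactly the same value, 13.5676. Igfbp1 rose by 2.20 against Normal (SE 0.09, limma adjusted p = 7.07e-09), 4.60-fold, and by 2.48 against Het Liver (SE 0.09, limma adjusted p = 2.41e-08), 5.58-fold. Het Liver minus Normal was -0.28 (SE 0.09, limma adjusted p = 0.0166), under 2-fold and with overlapping pieces.

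Igfbp3, the main carrier of IGF-1 in blood, is the neighbour of Igfbp1 on chromosome 11 in RefSeq. It was at 8.22, 8.35 and 7.52 in Normal, 8.04, 9.88 and 8.13 in Het Liver and 9.71, 8.89 and 8.82 in Het Tumor. All tumor pieces lay above all Normal pieces, and Het Liver piece 2 stood 1.79 above the mean of the other Het Liver pieces. The difference between Het Tumor and Normal was 1.11 (SE 0.45, limma adjusted p = 0.0508), just outside the threshold. Without Het Liver replicate 2, whose spread enters the shared variance, it was 1.11 with an SE of 0.26 and limma adjusted p = 0.00395. Het Tumor minus Het Liver was then 1.05 (limma adjusted p = 0.0146), in place of 0.45 (limma adjusted p = 0.462). Het Liver minus Normal was 0.66 (95% interval -0.34 to 1.65, limma adjusted p = 0.22), and 0.06 without Het Liver replicate 2. The other Igfbp3 probe set, at 9.77 in Het Liver piece 2, gave 0.79 between Het Tumor and Normal (limma adjusted p = 0.103 over probe sets). In Het Liver piece 2, 45 of 13888 genes (0.324%) lay 2-fold or more from the mean of the other Het Liver pieces, against 0 to 0.13% on the other 8 arrays. The stellate marker mean of that piece, 9.58, was the highest of its group. Its endothelial marker mean of 8.42 and macrophage marker mean of 9.40 were the lowest. Not each marker followed its mean: among Het Liver pieces, endothelial Pecam1, Kdr and Cdh5 and macrophage Lyz2 were highest there. Endothelial Stab2, Clec4g, Lyve1 and Tek were lowest, as were macrophage Adgre1, Csf1r, Clec4f, Marco and Vsig4. Of the stellate markers, Des, Rgs5, Pdgfrb, Col1a1 and Col3a1 were highest and Lrat and Reln lowest. Cd68, Dcn and Acta2 lay between. The part of these cells in the Igfbp3 value was not tested.

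Igfbp2, a binding protein abundant in fetal liver, was at 11.80, 11.86 and 11.92 in Normal, 11.27, 11.58 and 11.74 in Het Liver and 11.61, 11.77 and 12.28 in Het Tumor. The Het Tumor pieces straddled those of Normal, and the difference was 0.03 (95% interval -0.33 to 0.39, limma adjusted p = 0.896). Het Liver lay below Normal without overlap, by -0.33 (95% interval -0.69 to 0.03, limma adjusted p = 0.097). Both intervals exclude a 2-fold change. Igfbp4, which in general restrains IGF action, was under the 2-fold limit on each of its 6 probe sets, which gave -0.27 to -0.12 in Het Tumor and -0.43 to -0.12 in Het Liver against Normal. The brightest was at 13.76, 13.73 and 13.75 in Normal, 13.62, 13.65 and 13.60 in Het Liver and 13.50, 13.61 and 13.56 in Het Tumor. Normal lay above both other groups on it, and no difference reached 2-fold.

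Igfbp5 gave different answers on its 2 probe sets. RefSeq places the gene next to Igfbp2 on chromosome 1. The brighter was at 7.04, 7.11 and 6.95 in Normal, 6.57, 6.62 and 6.54 in Het Liver and 6.48, 6.51 and 6.48 in Het Tumor. Both other groups lay below Normal, by -0.55 in Het Tumor (SE 0.06, limma adjusted p = 1.42e-05) and -0.46 in Het Liver (SE 0.06, limma adjusted p = 5.81e-05), under 2-fold. The dimmer was at 6.53, 7.10 and 6.01 in Normal, 5.77, 5.46 and 5.14 in Het Liver and 6.30, 6.54 and 6.89 in Het Tumor. It was lower in Het Liver than in Normal by -1.09 (limma adjusted p = 0.00335 over probe sets) and higher in Het Tumor than in Het Liver by 1.12 (limma adjusted p = 0.00422). The order of the 2 heterozygous tissues for Igfbp5 therefore depended on the probe set.

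**Figure D2:**
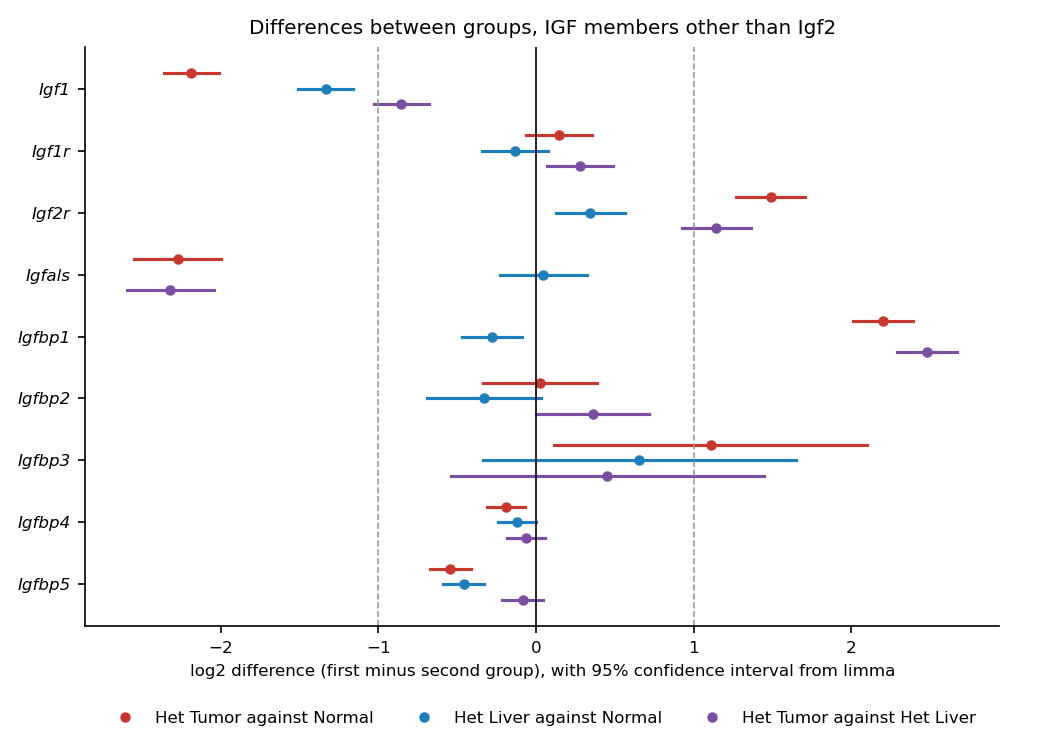
Log2 differences between groups for the 9 members other than Igf2, each point with its 95% confidence interval from limma, and dashed lines at the 2-fold limit. Igf1 lies below the limit in both comparisons with Normal, Igfals and Igfbp1 move by more than 2 only in the comparisons that include the tumor, and the Igfbp3 intervals are the widest.

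Calls required both a limma adjusted p under 0.05 and a change of at least 2-fold. Of the 9 members other than Igf2, 4 were called between Het Tumor and Normal, where 13% of all 13888 genes tested were called. Igf2r and Igfbp1 were higher, against 8.41% of all genes, and Igf1 and Igfals lower, against 4.59%. Between Het Liver and Normal 1 was called, against 11.5% of all genes: 0 were higher, against 8.29%, and Igf1 was lower, against 3.22%. Between Het Tumor and Het Liver 3 were called, against 5.04% of all genes: Igf2r and Igfbp1 were higher, against 2.1%, and Igfals lower, against 2.94%. By the adjusted p alone 6, 4 and 5 of the 9 passed, against 63.4%, 63% and 45.2% of all genes. The 3 arrays of the groups did not overlap for 7, 5 and 5 members, against 69.1%, 69.5% and 53% of all genes, which is near the members' share. All 9 were tested, and their median difference was 0.03, -0.13 and 0.28 in these comparisons, against -0.01 over all genes in each. Because the genes were chosen with results of these data known, nothing is read from these counts. Of the 22 probe sets of these 9 genes that were tested, 9, 5 and 6 were called, against 12%, 10.7% and 4.72% of 24140 probe sets. The first 2 comparisons share the Normal arrays.

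**Figure D3:**
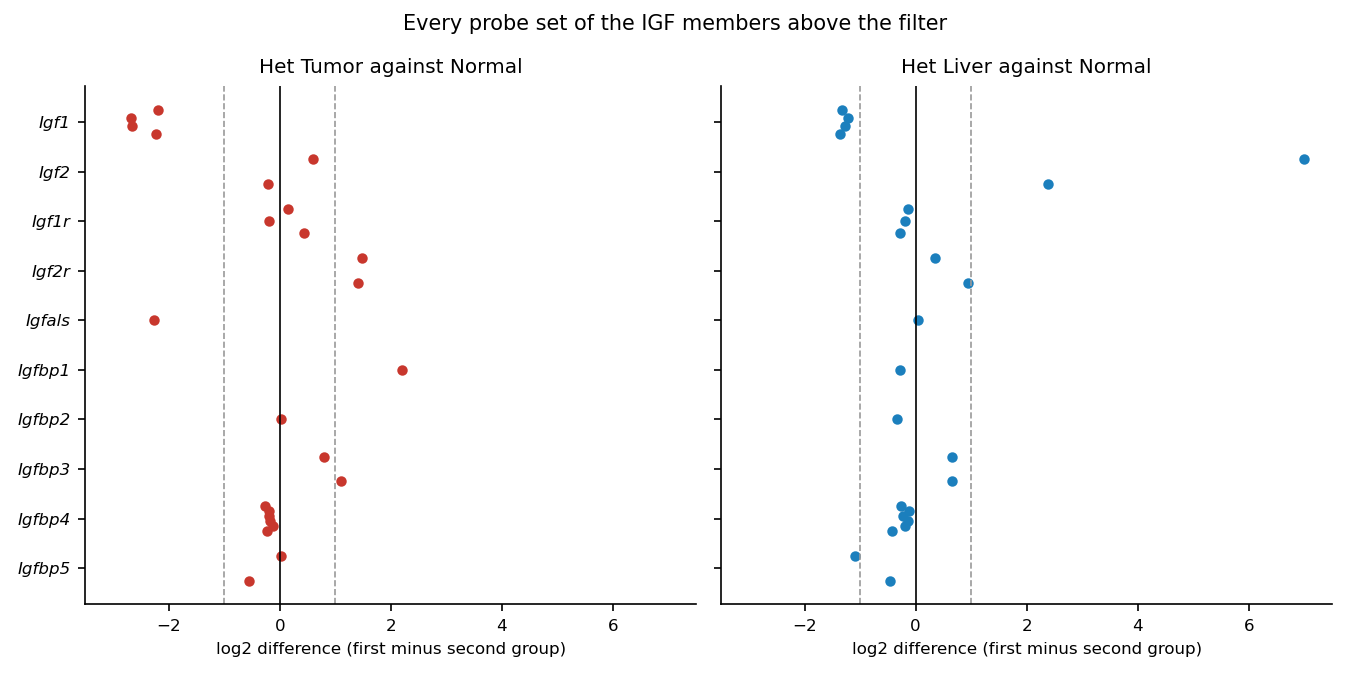
Log2 differences from Normal of each of the 24 probe sets of the 10 genes that passed the filter, 1 point per probe set, for Het Tumor on the left and Het Liver on the right, with dashed lines at the 2-fold limit. The 4 Igf1 and 6 Igfbp4 probe sets cluster by gene, whereas the pairs of Igf2 and Igfbp5 lie apart.

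The growth hormone axis, which controls Igf1 and Igfals, was examined as a list of 7 genes. In Het Tumor against Normal, 1 rose and 1 fell, and in Het Liver 2 rose and 1 fell, where 13% and 11.5% of all genes were called. The list medians were -0.09 and 0.38, against -0.01 over all genes in each. Ghr, the growth hormone receptor, was at 12.51, 12.57 and 12.56 in Normal, 11.52, 11.52 and 11.58 in Het Liver and 11.26, 11.15 and 10.85 in Het Tumor. It stepped down in the same order of groups as Igf1, without overlap. Ghr fell by 1.46 in Het Tumor (SE 0.09, limma adjusted p = 2.61e-07) and by 1.00 in Het Liver (SE 0.09, limma adjusted p = 5.41e-06). The Het Liver value lies at the 2-fold limit for this probe set, with -0.998 to -0.993 when single Normal or Het Liver arrays were left out and the call was lost, and the other Ghr probe sets gave -1.14 and -1.52 there. Stat5b, the transcription factor that carries the signal to Igf1, differed by -0.70 in Het Tumor (SE 0.06, limma adjusted p = 4.22e-06). Its paralog Stat5a differed by -0.60 there, and both were under 2-fold. Stat5b was lower in Het Liver as well, with a mean of 8.63 against 9.21 in Normal and no overlap. A dimmer Stat5b probe set had means of 8.32 in Normal, 7.92 in Het Liver and 7.99 in Het Tumor. Jak2, the kinase of the receptor, differed by 0.23 in Het Tumor and 0.38 in Het Liver.

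Socs2 and Cish, feedback inhibitors of the growth hormone receptor that STAT5 induces, were highest in Het Liver. Socs2 was at 8.76, 8.78 and 8.52 in Normal, 9.95, 10.01 and 10.06 in Het Liver and 8.39, 8.62 and 8.85 in Het Tumor. It rose by 1.32 in Het Liver against Normal (SE 0.11, limma adjusted p = 2.55e-06) and was lower in Het Tumor than in Het Liver by -1.39 (SE 0.11, limma adjusted p = 3.83e-06). Another Socs2 probe set rose by 1.69, and 2 dim ones gave 0.15 and -0.15. Cish was at 8.11, 8.09 and 8.07 in Normal, 8.79, 8.80 and 8.79 in Het Liver and 8.12, 7.94 and 7.92 in Het Tumor. Its Het Liver minus Normal difference of 0.70 (SE 0.06, limma adjusted p = 4.28e-06) was under 2-fold. Socs3, a further feedback inhibitor induced by cytokines, rose by 1.35 in Het Liver (SE 0.11, limma adjusted p = 2.35e-06) and by 1.89 in Het Tumor (SE 0.11, limma adjusted p = 1.49e-07). All 3 Socs3 probe sets rose in both comparisons.

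**Figure D4:**
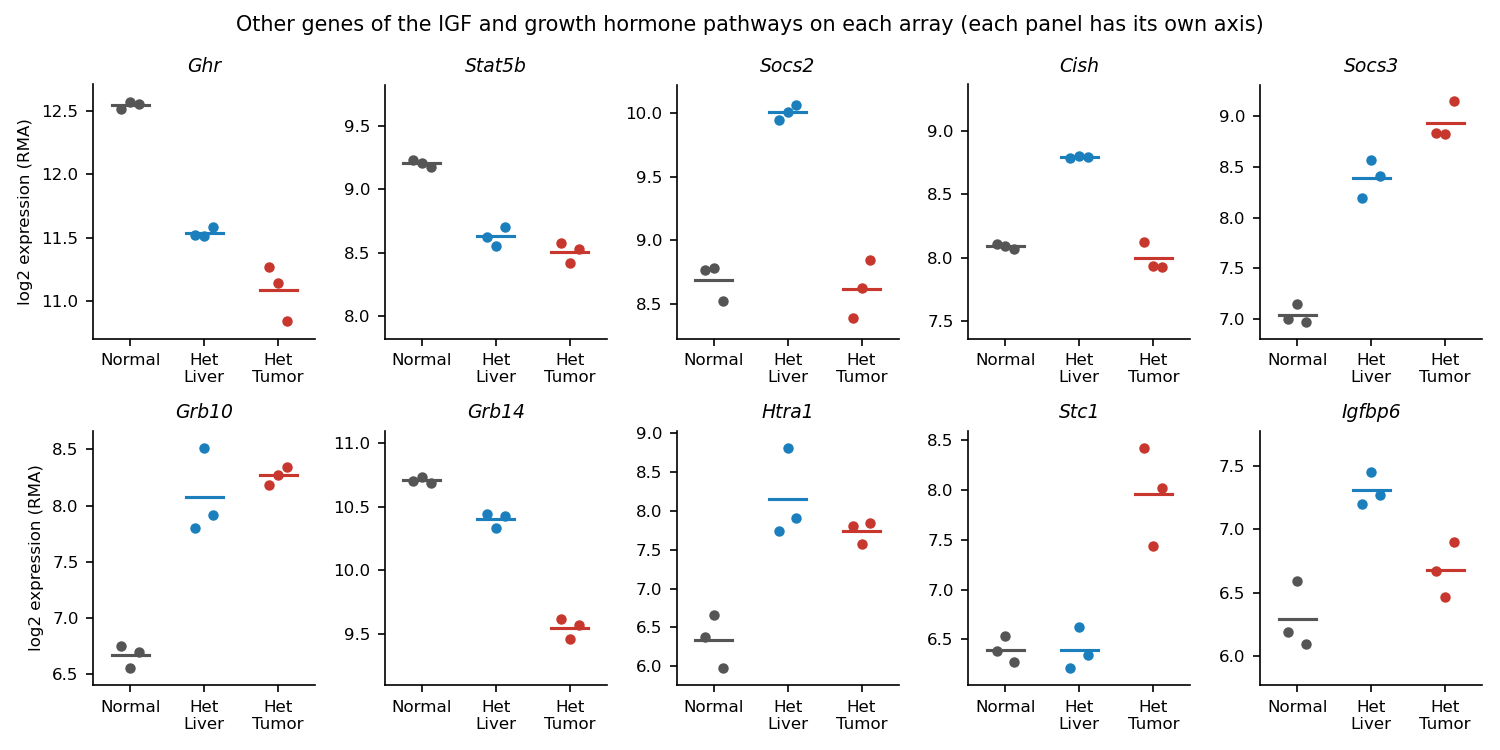
Log2 expression level (RMA) of 10 further genes of the growth hormone and IGF pathways on each of the 9 arrays, 1 point per piece and a bar at the group mean, with a separate vertical axis in each panel. Ghr steps down from Normal to Het Tumor as Igf1 does, Socs2 and Cish are highest in the 3 Het Liver pieces, and Stc1 is highest in the 3 tumor pieces.

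Downstream of the receptors, 21 of the 29 listed signalling genes were tested and the other 8 were not analysed here. In Het Tumor against Normal 1 rose and 1 fell, or 9.52% against 13% of all genes. In Het Liver 1 rose and 0 fell, or 4.76% against 11.5%. Between Het Tumor and Het Liver limma called 0, against 5.04%, and 13 of the 21 passed the adjusted p alone, against 45.2% of all genes. The list medians were 0.14, -0.26 and 0.19. Grb10, an adaptor that binds the IGF-1 and insulin receptors and inhibits them, was at 6.75, 6.55 and 6.70 in Normal, 7.80, 8.52 and 7.92 in Het Liver and 8.19, 8.27 and 8.34 in Het Tumor. It rose by 1.60 in Het Tumor (SE 0.15, limma adjusted p = 6.08e-06) and by 1.41 in Het Liver (SE 0.15, limma adjusted p = 1.81e-05), and a dimmer probe set gave 0.24 and 0.14. Grb14, a related inhibitor of the insulin receptor, fell by 1.16 in Het Tumor (SE 0.06, limma adjusted p = 6.91e-08) and differed by -0.31 in Het Liver. Below the 2-fold limit, Foxo1 was at -0.99 in Het Tumor and -0.83 in Het Liver, and Foxo3 at -0.96 in Het Liver. The brightest probe set of Pik3r1, a PI3 kinase regulatory subunit, was at -0.82 in Het Tumor and -0.67 in Het Liver. Its dimmer probe sets had means of 7.42, 7.18 and 7.06 in Normal, 6.84, 7.17 and 7.23 in Het Liver and 6.72, 6.04 and 6.55 in Het Tumor. The size of the Pik3r1 differences, and the direction in Het Liver, therefore depended on the probe set. In Het Tumor against Het Liver, Gsk3b was at 0.75 on its brightest probe set, the adaptor Shc1 at 0.82 and Pik3r2 at -0.49. The other Gsk3b probe sets that passed the filter differed less. Their means in Het Liver and Het Tumor were 7.86 and 8.19, 7.91 and 7.95, 5.95 and 6.24, and 5.43 and 5.67. Insr, the insulin receptor, was at -0.05 in Het Tumor and 0.00 in Het Liver against Normal.

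Of 4 other liver genes that insulin represses through FOXO1, 3 fell in Het Tumor, 3 fell in Het Liver and 0 rose in either, where 4.59% and 3.22% of all genes were called lower. The list medians were -1.51 and -1.98, against -0.01 over all genes, and the list was chosen with results known. G6pc, the last step of glucose release, fell by 3.10 in Het Tumor (SE 0.09, limma adjusted p = 7.08e-10) with a difference of -2.80 in Het Liver (SE 0.09, limma adjusted p = 2.28e-09). Pck1, which commits carbon to gluconeogenesis, fell in both, by -1.73 and -3.24, and was 1.51 higher in Het Tumor than in Het Liver (SE 0.08, limma adjusted p = 2.29e-07). Ppargc1a, a coactivator of that program, fell in both, by -1.28 and -1.16. Irs2, the insulin receptor substrate, was at -0.53 and -0.85, under 2-fold.

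Of the genes that release IGFs from their binding proteins or block that release, 5 of 7 were tested, of which 2 rose in Het Tumor, 1 rose in Het Liver and 0 fell in either, where 8.41% and 8.29% of all genes were called higher. The list medians were 0.18 and -0.002, against -0.01 over all genes. Stc1, a stanniocalcin, was at 6.38, 6.54 and 6.27 in Normal, 6.21, 6.63 and 6.34 in Het Liver and 8.43, 7.43 and 8.02 in Het Tumor. It rose by 1.56 against Normal (SE 0.21, limma adjusted p = 7.07e-05) and by 1.57 against Het Liver (SE 0.21, limma adjusted p = 0.000134). Stanniocalcins inhibit pappalysins, the proteases that cut IGFBP-4 and IGFBP-5. The pappalysin gene Pappa was at -0.34 in Het Tumor and -0.48 in Het Liver, under 2-fold. Htra1, a serine protease, rose by 1.40 in Het Tumor (SE 0.25, limma adjusted p = 0.000678) and by 1.81 in Het Liver (SE 0.25, limma adjusted p = 0.000116). It was highest in Het Liver piece 2, at 8.82 against 7.74 and 7.90 in the other pieces, and a second probe set gave 0.42 and 0.71. Of the others tested, the protease Adam12 differed by 0.18 and 0.36, and Stc2 by -0.16 in Het Liver.

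**Figure D5:**
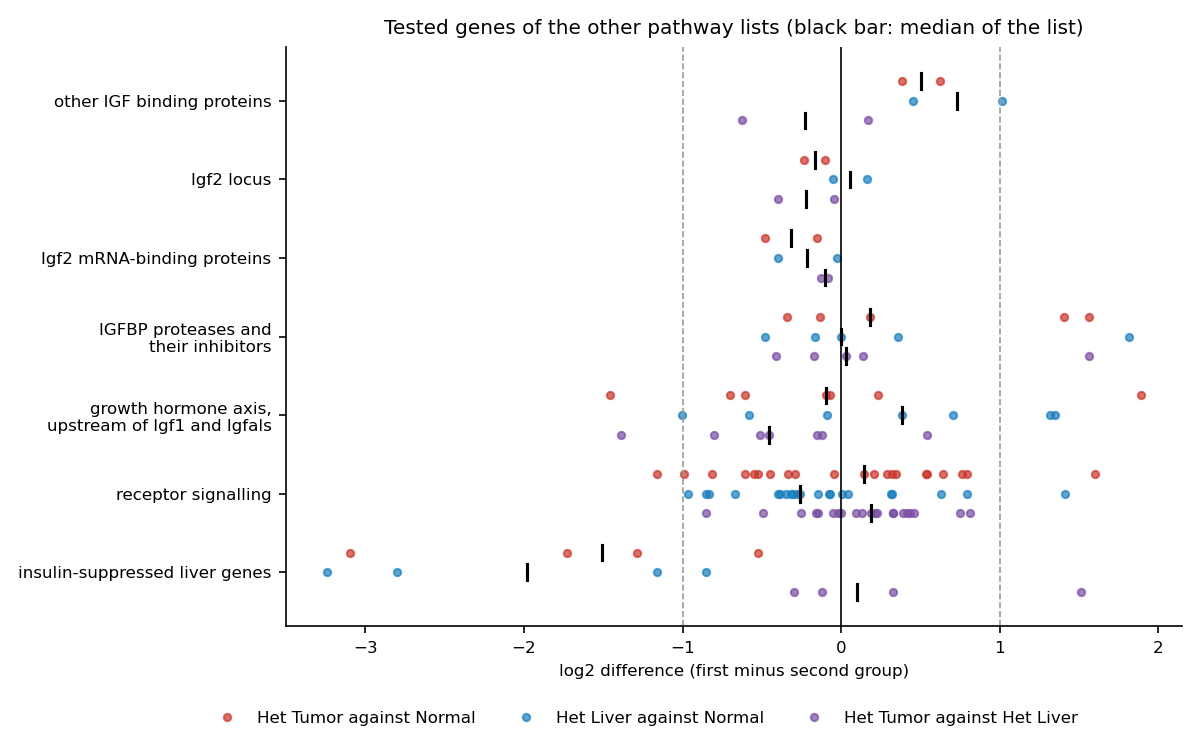
Log2 differences between groups of the tested genes of 7 further lists of the IGF pathway, 1 point per gene with a black bar at the list median and dashed lines at the 2-fold limit. The 4 insulin-suppressed genes lie below 0 in both comparisons with Normal, and most signalling genes lie within the limit.

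Among the binding proteins outside the 10 genes, Igfbp6, which prefers IGF-2, was at 6.19, 6.60 and 6.10 in Normal, 7.20, 7.45 and 7.27 in Het Liver and 6.67, 6.47 and 6.90 in Het Tumor. It rose by 1.01 in Het Liver against Normal (SE 0.14, limma adjusted p = 0.000111), a value at the 2-fold limit, and the call was lost without Normal replicate 1 or 3 or Het Liver replicate 2 (0.91 to 0.96). The brightest Igfbp7 probe set was at 0.62 in Het Tumor and 0.45 in Het Liver, under 2-fold. The next brightest went the other way without overlap, with means of 8.25 in Normal, 7.96 in Het Liver and 8.03 in Het Tumor. A dim Igfbp7 probe set had means of 5.86, 6.20 and 6.20 in that order. For the IGF2 mRNA-binding proteins, fetal RNA-binding proteins, the answer depended on the probe set. The brightest Igf2bp3 probe set was at -0.15 in Het Tumor and -0.03 in Het Liver against Normal. The next brightest, also above the filter level on all 9 arrays, was at 6.53, 6.61 and 6.75 in Normal. It was at 7.66, 7.33 and 7.80 in Het Liver and 7.38, 7.27 and 7.10 in Het Tumor, above Normal without overlap. A dimmer one was at 4.89, 4.80 and 4.71 in Normal, 7.06, 6.35 and 6.89 in Het Liver and 6.85, 6.38 and 6.29 in Het Tumor. Normal lay below the filter level on all 3 arrays, and the probe set was tested only because the other groups were above it, so these levels are a description. Another dim probe set was above the filter level on 2 of the 3 Normal arrays and differed from Normal by 1.23 in Het Tumor and 1.72 in Het Liver. The remaining Igf2bp1 probe set above the filter was at -0.48 and -0.40.

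At the Igf2 locus, Ins2, the neighbouring insulin gene, differed from Normal by -0.10 in Het Tumor and -0.05 in Het Liver, and the antisense transcript Igf2os by -0.23 and 0.16. None reached 2-fold. Igf2os had the same value, 6.13767, on all 3 Normal arrays (SD 0). Ins2 was at 6.70916 on Normal arrays 2 and 3 and on Het Liver array 1. With values repeated exactly across arrays, whether these probe sets followed their transcripts was not tested. These small differences therefore do not show that the neighbours of Igf2 stayed unchanged. How the array separates Igf2 from Igf2os, which overlap on opposite strands, was not tested. H19 was not analysed here.

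The 5 genes whose levels followed Igf2 most closely over the 9 arrays, among 665 tested genes whose group means span at least 2 (log2), were Lamc3, Ly6k, Nt5c2, Slc5a1 and Nmrk1. Their Pearson correlations with Igf2 were 0.997, 0.996, 0.995, 0.994 and 0.993. With 3 groups of 3 pieces these values mostly describe the group means. Lamc3, a laminin chain, had mean log2 levels of 5.78 in Normal, 8.56 in Het Liver and 5.97 in Het Tumor. Slc5a1, a sodium and glucose cotransporter, was at 5.34, 8.24 and 5.65, and Nmrk1, a nicotinamide riboside kinase, at 7.48, 9.55 and 7.64. Ly6k was at 5.17, 7.91 and 5.32, and the nucleotidase Nt5c2 at 7.22, 9.47 and 7.33. All 5 were highest in Het Liver, the choice having fixed that.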

How the data were processed

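Per the submitters' processing notes, the authors computed the deposited log2 levels by RMA, and version 1.3.1.187 of Affymetrix Expression Console was used. In RMA all arrays get the same distribution of probe values, so a change that moves most genes one way is hidden. No detection calls were used here, and log2 differences of dim probe sets understate changes. Probe sets were named through the platform annotation, and 34958 of 45101 had 1 symbol. A gene was represented by its probe set with the highest mean.

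A gene was tested where 3 or more of the 9 arrays had it over their own 40th percentile. All arrays entered 1 model of group means in limma 3.58.1 (R 4.3.3), which leaves 6 residual degrees of freedom. Benjamini-Hochberg adjustment ran over all 13888 genes, or over 24140 probe sets where stated. The steps were tested on simulated data. Precision is limited by having 3 arrays in a group.

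The members and all gene lists were chosen with earlier results of these data known. Named were all members, up to 4 genes with the smallest adjusted p of each other list per comparison, and the 5 genes most correlated with Igf2. Insr, the values of named genes in the other comparison and the second probe sets were added after their values were seen. Promoter windows come from RefSeq, GRCm38.p6. Alternatives covered the threshold, filter, probe set rule, normalization, variance model, samples fitted, replicate block and each array left out. For called genes outside the members they were added after the data were seen.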

Additional observations from a re-analysis of the deposited data

Results flagged for a closer look

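For 3 members the difference from Normal was unlike in the 2 tissues of the heterozygous mouse, past the adjusted p and by at least 2-fold. The test was limma's of Het Tumor against Het Liver, which is the difference between those differences since both use the Normal arrays. The Het Tumor minus Het Liver value was 2.48 for Igfbp1 (limma adjusted p = 2.41e-08), -2.32 for Igfals (limma adjusted p = 2.68e-07) and 1.14 for Igf2r (limma adjusted p = 6.43e-06). The 3 tumor pieces did not overlap with the 3 Het Liver pieces for any of these genes. The dimmer Igf2r probe set gave 0.47, under 2-fold. By the adjusted p alone 5 members passed. The added ones were Igf1 at -0.85 (limma adjusted p = 1.03e-05) and Igf1r at 0.28 (limma adjusted p = 0.0343).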

How the results depend on the processing

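With 3 pieces from 1 animal per group, these results cannot be carried over to other animals. The calls of Igf1 in both comparisons with Normal, and of Igfals and Igfbp1 in Het Tumor against Normal, kept their direction and threshold side in each alternative run. With the adjusted p alone, 8799, 8745 and 6274 genes passed in Het Tumor against Normal, Het Liver against Normal and Het Tumor against Het Liver, and 4 and 5 members in the last 2. With the most variable probe set, 2 members were called in Het Liver against Normal and 5 in Het Tumor against Het Liver. Leaving out each array gave 1795 to 1838, 1592 to 1645 and 681 to 732 genes, and 4 to 5, 1 to 1 and 3 to 4 members. With the replicate number as a block, 1807, 1599 and 700 genes and 5, 1 and 3 members were called, the added one being Igfbp3 (limma adjusted p = 0.0368), and no other member's call changed. Whether the numbers pair the pieces is not known: same-numbered deviations correlated at -0.113 to 0.138, and 6 of 18 comparisons were best with their own number. Between Het Liver and Het Tumor, from the same mouse, these correlations were 0.0885, 0.0613 and 0.0397. With 3 pieces in a group they cannot decide the question. Igfbp3 in Het Tumor against Normal also passed with the most variable probe set, eBayes with trend, the stricter filter, median centring, the compared groups alone and without Het Liver replicate 1 or 2 (limma adjusted p = 0.00395 to 0.0487). It failed under cyclic loess (limma adjusted p = 0.0703), after averaging its probe sets (limma adjusted p = 0.0752) and when all genes were kept (limma adjusted p = 0.0524). Leaving out any single Normal or Het Tumor piece, or Het Liver replicate 3, also gave no pass. The difference was 0.85 without Normal replicate 3 (limma adjusted p = 0.16), under 2-fold. It was 0.82 without Het Tumor replicate 1 (limma adjusted p = 0.175), also under 2-fold.

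Some differences that were small in the main run changed sign. Het Tumor minus Het Liver for Igfbp4 was 0.036 with the mean of probe sets and 0.21 with the most variable one. For Igfbp5 these were 0.52 and 1.12, the latter past both limits of a call (limma adjusted p = 0.00415). Its Het Tumor minus Normal value was 0.027 with the most variable one. Igfbp2 in Het Tumor against Normal was -0.050 with cyclic loess and -0.17 to 0.16 with single arrays left out, below 0 without Normal replicate 1 or Het Tumor replicate 3. Igfals in Het Liver against Normal was -0.025 with cyclic loess and -0.014 to 0.14 with single arrays left out, below 0 without Normal replicate 2. For Igfbp4 and Igfbp5 the sign changed with the probe sets taken, and for Igfbp2 and Igfals the cause was not tested. With the mean of probe sets Stc1, Htra1, Grb10, Grb14, Socs2, Pck1 and Ppargc1a lost at least 1 call by falling under 2-fold, and Ghr in Het Liver did so with median centring and without several single arrays (-0.98 with the former).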
